A study of Mus musculus with 9 samples.

Results

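The genes described here are 43 type I interferon-stimulated genes, listed by symbol as effectors that interferon alpha and beta are known to induce, out of 35288 genes in the count table. They were followed in T15 cells, a cell line from a Smarcb1-negative murine peripheral T-cell lymphoma (PTCL), by bulk RNA-seq of 9 libraries in 3 groups of 3. SAHA cells received suberoylanilide hydroxamic acid (vorinostat), an inhibitor of histone deacetylases, repeatedly at 1 µM and were harvested at 72 h. The study's text reports strong apoptosis of T15 cells at this concentration. The part of cell death in the levels given here was not tested. Smarcb1-RE cells carried a lentiviral pInd20 plasmid with Smarcb1, a core subunit of the SWI/SNF chromatin remodelling complex, and were selected with G418 and induced with Doxycyclin (Dox, 0.5 µg/µl) until 72 h. For re-expression, the study's text reports reduced growth without an effect on viability. A vehicle is mentioned in the labels for the drug and an control plasmid for re-expression, without stating which of them the 3 control libraries received, whereas the study's text calls the control cells untreated. Transduction, selection and Dox therefore cannot be told apart from Smarcb1 itself where Smarcb1-RE is set against control. The same holds against SAHA, for which none of these steps is given. If the control cells were untreated, the vehicle cannot be told apart from SAHA either. No group was treated with interferon according to the labels. Both comparisons with control share the same 3 control libraries.

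Type I interferons signal through the receptor IFNAR1/IFNAR2 and the kinases JAK1 and TYK2, which phosphorylate STAT proteins such as STAT2. Phosphorylated STAT proteins bind IRF9 to form the factor ISGF3, which recognises the interferon-stimulated response element (ISRE) in the promoters of its targets. The products of these targets include sensors and nucleases that act on viral RNA, GTPases that trap viral particles, the ubiquitin-like modifier ISG15 and its conjugation machinery, and feedback inhibitors such as USP18.

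Library totals ranged from 20900424 to 24941408 counts, and were lowest in Smarcb1-RE (20900424 to 21911105). Levels are given as CPM, counts relative to the library total after its adjustment by edgeR's TMM method, on which 3 counts, taken as the limit of detection, correspond to 0.123 to 0.133 CPM (counting error only). Smarcb1 itself was at 0.208 ± 0.122 CPM (SD, n = 3) in control, 0.335 ± 0.224 CPM in SAHA and 6.35 ± 0.205 CPM in Smarcb1-RE. Control replicate 1 stood apart from the other control libraries, with a chi-square per gene of 12.9 and 14.5 against them, compared with 2.11 to 4.66 for all other replicate pairs. The 10 T cell markers summed to 2236 to 2671 CPM over all libraries, but 3 of them were near absent and not tested. Of these, Cd2 and Cd5 were at or under 3 counts in every library, and Thy1 reached at most 6 counts (SAHA replicate 2).

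The letters of the ISRE core, GAAA followed by any 2 bases and GAAA again (TTTC, 2 bases and TTTC on the other strand), were searched on both strands of RefSeq promoter windows (GRCm38.p6), which reach from 250 bases before to 50 bases after a gene's start. Of the 43 genes, 34 matched a window by symbol. Usp18, Oas2, Rtp4, Parp9, Ifi27, Parp14, Mx1, Mx2 and Tor3a are named only. The letters were present in 16 of these 34 genes (47.1%), compared with 1079 of all 27025 genes with a window (3.99%). Overlapping matches were counted separately, which gave 27 matches. The following stretches, 5′ to 3′ on the strand of the gene, end before its start. They are shown because they include genes that were highest in SAHA (Stat2, Isg15, Ifit1, Oas1a and Bst2), genes that were highest in Smarcb1-RE (Rsad2 and Ddx60) and a pair of neighbouring copies with the same letters (Ifit3 and Ifit3b). Capitals mark the matched letters.
Stat2 (chr10:128270256-128270305, plus strand): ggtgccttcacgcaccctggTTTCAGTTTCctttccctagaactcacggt
Isg15 (chr4:156200855-156200916, minus strand): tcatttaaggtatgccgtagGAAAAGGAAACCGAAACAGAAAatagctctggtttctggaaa
Ifit1 (chr19:34640765-34640833, plus strand): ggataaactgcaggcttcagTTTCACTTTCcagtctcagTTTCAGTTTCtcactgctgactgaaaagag
Ifit3 (chr19:34583353-34583436, plus strand): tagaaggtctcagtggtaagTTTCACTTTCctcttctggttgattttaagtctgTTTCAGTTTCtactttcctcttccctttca
Oas1a (chr5:120907526-120907565, minus strand): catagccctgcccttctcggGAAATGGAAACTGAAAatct
Bst2 (chr8:71537567-71537622, minus strand): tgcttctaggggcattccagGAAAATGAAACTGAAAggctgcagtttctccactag
Rsad2 (chr12:26456543-26456592, minus strand): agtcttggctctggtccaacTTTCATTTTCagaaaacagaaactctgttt
Ddx60 (chr8:61928014-61928086, plus strand): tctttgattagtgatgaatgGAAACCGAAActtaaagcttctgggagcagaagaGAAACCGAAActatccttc

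Isg15 held 3 overlapping matches in a single run, and Oas1a and Bst2 held 2 overlapping matches each. Ifit1, Ifit3 and Ddx60 held 2 separate matches each. Ifit3b, the neighbouring copy of Ifit3, held the same 84 bases before its own start (chr19:34607749-34607832). Of the 27 matches, 23 lay before the start, in 14 genes, with their first base between positions -222 (Stat2) and -12 (Oas1g). The gamma-activated site core TTCNNNGAA, which reads the same on both strands, was found in 7 of the 34 genes (20.6%), compared with 9.55% of all genes. Both motifs were searched independently and may overlap. A match describes the letters of the window and not binding by a factor.

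**Figure D1:**
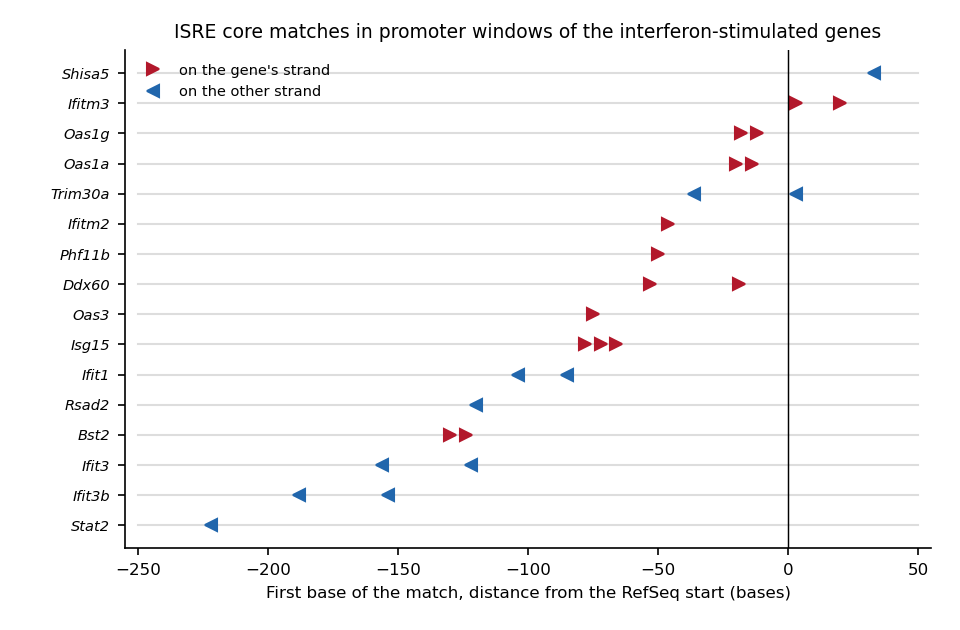
Position of each match to the ISRE core letters in the promoter windows of 16 interferon-stimulated genes. The x axis gives the distance of the first base of the match from the RefSeq start in bases, red triangles are matches on the strand of the gene and blue triangles matches on the other strand. The matches before the start span -222 to -12, and those of Isg15, Oas1a, Oas1g and Bst2 are clustered in overlapping groups.

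Of the 43 genes, 38 passed the filter on low counts and were tested among 13697 genes, 30 of them at a sufficient level in all 3 groups. Ifit3b, Oas2, Oasl1, Ifitm2 and Ifitm3 were not tested. Ifitm1, Ifi44 and Lgals3bp passed only because of the Smarcb1-RE libraries, and Usp18, Ifit3, Oas1g, Mx1 and Mx2 were below the filter in control. Calls were made at a p under 0.05 in the quasi-likelihood test of edgeR after Benjamini-Hochberg adjustment over all tested genes. In bulk RNA, a change in the share of cells that express a gene cannot be told apart from a change in RNA per cell.

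SAHA was accompanied by higher levels of 25 of the 38 tested genes and lower levels of 6, and 7 were not called. Among all tested genes, 66.9% were called in SAHA, 32.6% higher and 34.3% lower, so the share of the listed genes called higher (65.8%) lay above that background and the share called lower (15.8%) below it. The median log2 fold change was 0.81 over the tested members (0.84 without Ifitm1, Ifi44 and Lgals3bp), compared with 0.00 over all tested genes, and the range was -2.24 to 4.30. At a minimum absolute log2 fold change of 1, 16 were higher and 1, Isg20, was lower. At this cut the calls over all 13697 tested genes were also mostly upward, with 1349 higher and 322 lower. The 3 SAHA and 3 control libraries did not overlap for 25 higher and 8 lower members, compared with 33.8% and 34.9% of all tested genes.

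In Smarcb1-RE, 33 of the 38 tested genes were upregulated, 1 (Bst2) was lower and 4 were not called (Ifit2, Parp9, Dtx3l and Tor3a). Among all tested genes, 77.8% were called in Smarcb1-RE, 39.2% higher and 38.6% lower, compared with 86.8% and 2.63% of the tested members. These counts include Ifitm1, Ifi44 and Lgals3bp, which entered the test only because they were high in Smarcb1-RE, and without them 30 of 35 were higher (85.7%) and 1 lower (2.86%). The median log2 fold change was 1.05 (0.98 without the 3 genes that passed the filter only in Smarcb1-RE), compared with 0.01 over all tested genes. It was also 1.05 with Ifi44, which was at 0 in control, set at its lower bound. At an absolute log2 fold change of 1 or more, 20 were higher, those 3 genes among them, and 0 lower. Among all 13697 tested genes, 2309 were higher and 928 lower at this cut. The libraries of Smarcb1-RE and control did not overlap for 33 higher members (30 without those 3) and 1 lower member, compared with 40.4% and 39.1% of all tested genes. Without control replicate 1, 32 were called higher and 2 lower, since Parp12 lost its call (adjusted p = 0.0577) and Dtx3l was called lower (log2 fold change -0.13, edgeR adjusted p = 0.0142). With library totals in place of TMM factors, the median of all tested genes moved to 0.17, 36 members were called higher and Bst2 was no longer called.

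The summed level of all 43 genes was 1536 to 1552 CPM in the control libraries, 2110 to 2310 CPM in SAHA and 2440 to 2502 CPM in Smarcb1-RE. The 3 groups did not overlap. Per kilobase of exon, Shisa5 (96.9 ± 2.41 CPM per kb, SD, n = 3) and Bst2 (95.2 ± 5.4) were the most abundant in control, and their ranges could not be separated. Bst2 (132 ± 7.53 CPM per kb) led in SAHA, followed by Shisa5 (93.1 ± 1.21). In Smarcb1-RE the order was Shisa5 (144 ± 4.73 CPM per kb), Bst2 (85.2 ± 2.37), Ifi27 (58.7 ± 2.28) and Samd9l (45.8 ± 0.609).

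**Figure D2:**
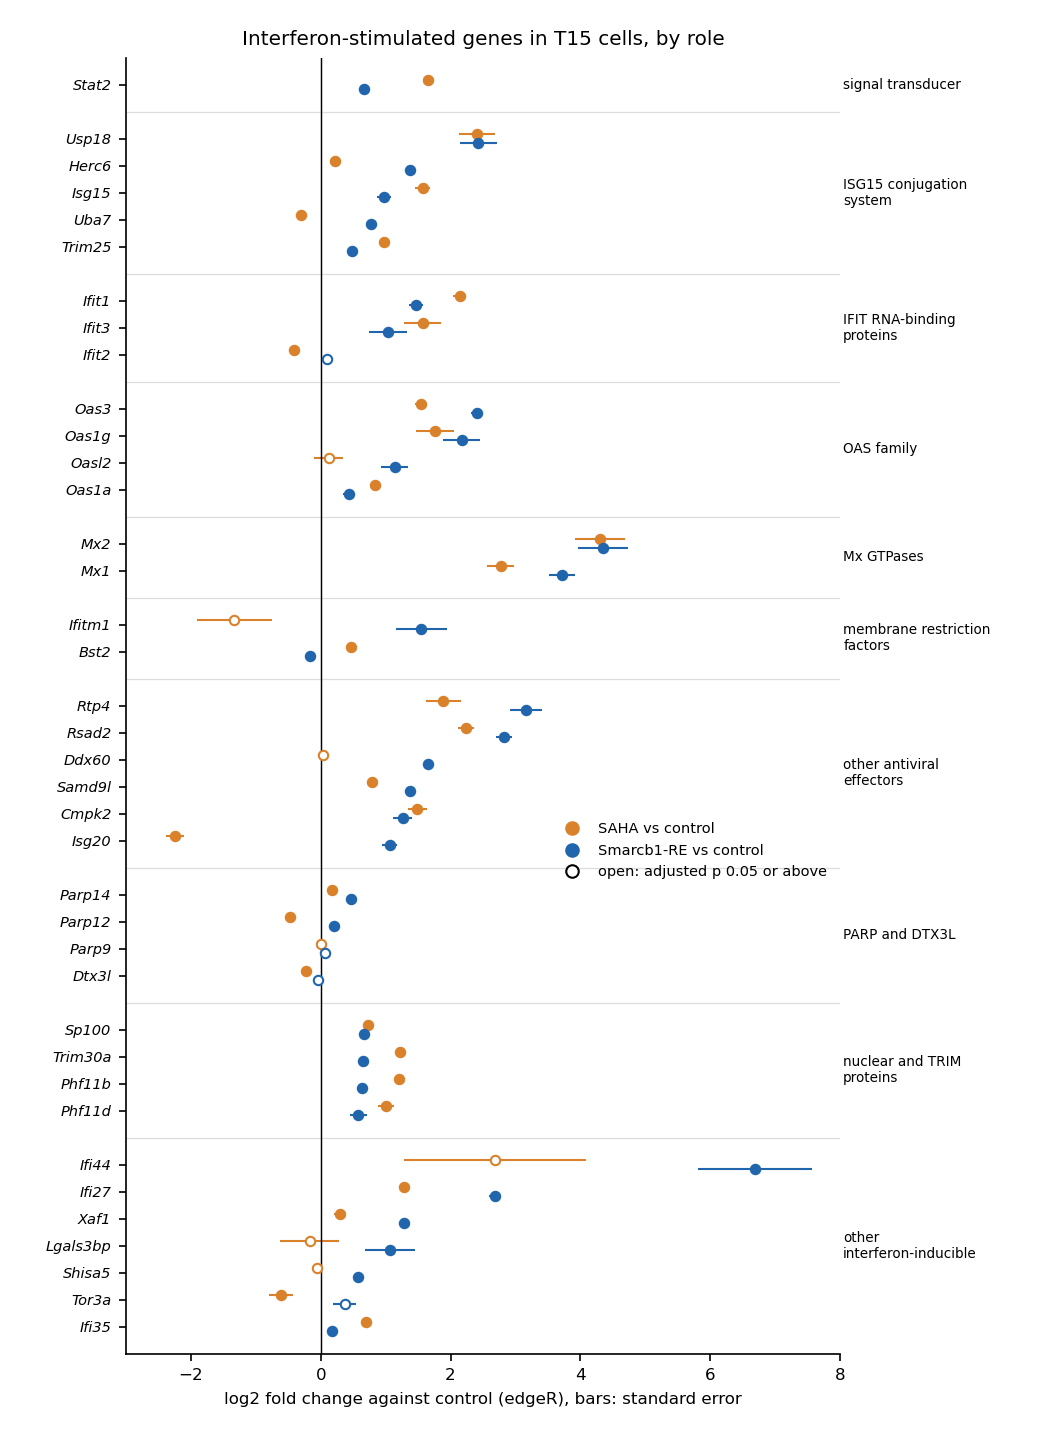
Log2 fold change of the 38 tested interferon-stimulated genes against control, ordered by role, for SAHA (orange) and Smarcb1-RE (blue). The x axis is the edgeR log2 fold change, bars are standard errors and open symbols have an adjusted p of 0.05 or above. Most filled symbols lie to the right of 0, Isg20 stands at -2.24 in SAHA and 1.06 in Smarcb1-RE, and the value of Ifi44 depends on the prior count because it was at 0 in control.

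Stat2, the STAT protein particular to type I and III interferon signalling and itself an interferon target, rose in both treated groups and was highest in SAHA. Stat2 measured 53.9, 51.2 and 55.9 CPM in control, 146, 186 and 174 CPM in SAHA and 83.4, 83.6 and 89.5 CPM in Smarcb1-RE. All 3 groups were separate, with SAHA highest. The log2 fold change was 1.65 in SAHA (SE 0.08, edgeR adjusted p = 4.5e-09) and 0.67 in Smarcb1-RE (SE 0.08, edgeR adjusted p = 4.64e-06), and Smarcb1-RE lay below SAHA by a log2 fold change of -0.98 (SE 0.07, edgeR adjusted p = 9.1e-08).

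Of the 5 genes of the ISG15 system, 4 rose and 1 fell in SAHA, and all 5 rose in Smarcb1-RE. Isg15, the ubiquitin-like modifier, was at 17.9, 14.5 and 13.2 CPM in control, 38.2, 47.2 and 49.6 CPM in SAHA and 29.3, 30.4 and 30.5 CPM in Smarcb1-RE. Its log2 fold change was 1.57 (SE 0.11) in SAHA and 0.98 (SE 0.11) in Smarcb1-RE, with adjusted p = 8.66e-08 and 3.9e-06 in edgeR. Uba7, the E1 enzyme that activates ISG15, took the opposite course in SAHA. It measured 93.8, 79.8 and 86.7 CPM in control, 69.7, 71.7 and 69.8 CPM in SAHA and 146, 147 and 150 CPM in Smarcb1-RE, with no overlap between groups. Uba7 thus fell in SAHA (log2 fold change -0.30, SE 0.05, edgeR adjusted p = 0.000265) and rose in Smarcb1-RE (0.77, SE 0.05, edgeR adjusted p = 2.48e-08). Herc6, the mouse E3 ligase for ISG15, rose from 38.9 ± 0.589 CPM (SD, n = 3) to 45.5 ± 0.885 CPM in SAHA and 101 ± 2.08 CPM in Smarcb1-RE. Trim25, a ubiquitin and ISG15 ligase that acts on RIG-I, showed the reverse order, at 68.9 ± 4.14, 136 ± 6.19 and 96.3 ± 4.71 CPM. Usp18, the ISG15 protease that also blocks IFNAR2, was low in control (0.68, 0.423 and 0.617 CPM) and higher in SAHA (2.12, 4.06 and 3.06 CPM) and Smarcb1-RE (3.45, 2.96 and 2.93 CPM). Its log2 fold changes were 2.41 (SE 0.28, edgeR adjusted p = 7.3e-06) and 2.43 (SE 0.28, edgeR adjusted p = 4.09e-06), and the ranges of both treated groups overlapped.

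The Ifit genes encode proteins that bind viral RNA, and the 4 of them on chromosome 19 (chr19:34550694-34650009, GRCm38) did not move together. Ifit1, which recognises RNA lacking 2′-O-methylation of the cap, was at 5.95, 5.62 and 6.08 CPM in control, 21.9, 28.2 and 28 CPM in SAHA and 15.8, 16.1 and 17 CPM in Smarcb1-RE. Every SAHA library lay above every Smarcb1-RE library, and every Smarcb1-RE library above control. The log2 fold change was 2.14 (SE 0.10, edgeR adjusted p = 5.53e-09) in SAHA and 1.47 (SE 0.11, edgeR adjusted p = 5.24e-08) in Smarcb1-RE. Ifit2, which binds AU-rich RNA and lies at the other end of the cluster, fell in SAHA. Its values were 21, 25.8 and 22.8 CPM in control, 16.2, 18.6 and 17.4 CPM in SAHA and 24.3, 25.3 and 24.6 CPM in Smarcb1-RE, so that SAHA lay below control and Smarcb1-RE within the control range. The log2 fold change was -0.41 in SAHA (SE 0.08, edgeR adjusted p = 0.000481) and 0.09 in Smarcb1-RE (SE 0.08, edgeR adjusted p = 0.282). Ifit3 rose from 0.475 ± 0.0439 CPM to 1.42 ± 0.231 CPM in SAHA and 0.984 ± 0.224 CPM in Smarcb1-RE, but 61.8% of the 31-base stretches of its transcripts occur in other genes, so its reads could be shared with Ifit3b. Ifit3b had 0 counts in control, 3, 7 and 4 counts in SAHA and 4, 7 and 5 counts in Smarcb1-RE, the last of which was at least 1.84-fold higher than the limit of detection in control.

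The oligoadenylate synthetases make 2′-5′ oligoadenylates that activate RNase L. Of the 6 listed Oas and Oasl genes, 4 were tested, of which 3 rose and 1 was not called in SAHA and all 4 rose in Smarcb1-RE. Oas1a was at 32, 27.5 and 29.9 CPM in control, 47.4, 55.6 and 56.9 CPM in SAHA and 42, 38 and 40.1 CPM in Smarcb1-RE. SAHA was highest without overlap (log2 fold change 0.84, SE 0.07, edgeR adjusted p = 7.56e-07), and Smarcb1-RE lay between (0.43, SE 0.08, edgeR adjusted p = 0.000217). Oas3 had the inverse order, at 4.21 ± 0.0364 CPM in control, 12.2 ± 1.16 CPM in SAHA and 22.3 ± 0.963 CPM in Smarcb1-RE. Oas1g rose by a log2 fold change of 1.76 in SAHA and 2.17 in Smarcb1-RE. Reads of these copies may not have been separated, since 68.8% of the 31-base stretches of Oas1a and 55.1% of those of Oas1g occur in other genes. Oasl2 was not called in SAHA (log2 fold change 0.12, edgeR adjusted p = 0.655) and rose in Smarcb1-RE (1.14, edgeR adjusted p = 0.000252). Oas2 had 0, 1 and 1 counts in control, 4, 3 and 5 counts in SAHA and 4, 7 and 9 counts in Smarcb1-RE, a ratio of 6.22 (95% counting interval 1.39 to 57.2) and 10.3 (2.51 to 91.1) to control. Oasl1 had 0, 1 and 4 counts in control, 0 in each SAHA library and 1, 2 and 1 in Smarcb1-RE.

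The Mx genes, which encode dynamin-like GTPases that block viral nucleocapsids, rose strongly from a low level in control. Mx1 measured 0.383, 0.507 and 0.452 CPM in control, 2.64, 3.05 and 3.53 CPM in SAHA and 6.44, 5.79 and 5.56 CPM in Smarcb1-RE. The 3 groups were separate, with a mean 6.87 times control in SAHA and 13.3 times control in Smarcb1-RE. The log2 fold change was 2.77 (SE 0.21, edgeR adjusted p = 1.6e-07) in SAHA and 3.71 (SE 0.20, edgeR adjusted p = 2.85e-09) in Smarcb1-RE. Mx2, which lies beside Mx1 on chromosome 16 (cluster chr16:97447035-97560900), was at 0.213, 0.296 and 0.0411 CPM in control, the last of which is a single count. It measured 2.64, 4.33 and 4.09 CPM in SAHA and 4.39, 3.18 and 3.83 CPM in Smarcb1-RE. Both treated groups lay above control and overlapped each other (log2 fold change 4.30, SE 0.38, edgeR adjusted p = 7.01e-07 in SAHA, and 4.35, SE 0.38, edgeR adjusted p = 2.98e-07 in Smarcb1-RE).

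Restriction factors of cell membranes were low except Bst2. Bst2 encodes tetherin, which holds budding virions at the cell surface, and measured 91.6, 83.7 and 82.7 CPM in control, 111, 123 and 123 CPM in SAHA and 76.4, 79.3 and 75.1 CPM in Smarcb1-RE. SAHA lay above control (log2 fold change 0.47, SE 0.05, edgeR adjusted p = 5.87e-06) and Smarcb1-RE slightly below it (-0.16, SE 0.05, edgeR adjusted p = 0.0162). The lower call was lost with library totals only (adjusted p = 0.991), with a filter of at least 10 counts in every library (0.0847) and without Smarcb1-RE replicate 3 (0.0602). Ifitm1, which hinders fusion of enveloped viruses, had 4, 4 and 3 counts in control, 2, 1 and 1 counts in SAHA and 12, 9 and 11 counts in Smarcb1-RE. Smarcb1-RE was highest, but as the gene was tested only because of these libraries, no p is given for it. Ifitm2 had 6, 0 and 2 counts in control, 0 in SAHA and 0, 1 and 0 in Smarcb1-RE, and Ifitm3 had 0 counts in all 9 libraries.

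Among 6 further antiviral effectors, all rose in Smarcb1-RE, whereas 4 rose, 1 fell and 1 was not called in SAHA. Rsad2 encodes viperin, which makes a chain-terminating ribonucleotide, and measured 2.17, 2.45 and 1.97 CPM in control, 8.88, 11.7 and 10.6 CPM in SAHA and 15.4, 15.7 and 15.4 CPM in Smarcb1-RE. The groups were separate (log2 fold change 2.24, SE 0.12, edgeR adjusted p = 1.41e-08 in SAHA, and 2.82, SE 0.12, edgeR adjusted p = 4.32e-10 in Smarcb1-RE). Cmpk2, the mitochondrial nucleotide kinase that lies beside Rsad2 (chr12:26442746-26479837), rose by log2 fold changes of 1.49 and 1.26. Rtp4, a transmembrane protein with antiviral activity, was at 0.638, 0.718 and 0.493 CPM in control, 1.47, 2.61 and 2.8 CPM in SAHA and 5.5, 5.31 and 5.86 CPM in Smarcb1-RE. Its groups did not overlap, and the log2 fold change was 1.89 (SE 0.27, edgeR adjusted p = 4.18e-05) in SAHA and 3.16 (SE 0.25, edgeR adjusted p = 1.14e-07) in Smarcb1-RE. Samd9l, a restriction factor and growth regulator, was abundant throughout, at 97.9, 92 and 97.3 CPM in control, 159, 168 and 169 CPM in SAHA and 252, 245 and 248 CPM in Smarcb1-RE.

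Isg20 and Ddx60 differed most between both treatments in the same group (log2 fold change of Smarcb1-RE against SAHA 3.31 and 1.61). Rtp4, Samd9l and Rsad2 were also higher in Smarcb1-RE than in SAHA without overlap, whereas Cmpk2 overlapped. Isg20, a 3′-5′ exonuclease that degrades single-stranded RNA (chr7:78913424-78920396, plus strand), measured 12.5, 10.8 and 8.67 CPM in control, 2.25, 2.47 and 2.02 CPM in SAHA and 22.3, 22.3 and 22.2 CPM in Smarcb1-RE. Every SAHA library lay below control and every Smarcb1-RE library above it. The log2 fold change was -2.24 in SAHA (SE 0.14, edgeR adjusted p = 3.77e-08) and 1.06 in Smarcb1-RE (SE 0.11, edgeR adjusted p = 1.1e-06). Ddx60, a helicase of antiviral RNA sensing and decay (chr8:61928087-62038244, plus strand), was at 15.5, 18 and 16.9 CPM in control, 15.9, 18.1 and 17.7 CPM in SAHA and 54.1, 52.4 and 51.4 CPM in Smarcb1-RE. SAHA and control overlapped (log2 fold change 0.04, SE 0.07, edgeR adjusted p = 0.669), and Smarcb1-RE lay above both (1.65 against control, SE 0.06, edgeR adjusted p = 1.87e-10).

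The PARP and DTX3L genes, which encode ADP-ribosyltransferases and a partner E3 ligase, were among the least changed. Parp14, Dtx3l and Parp9 lie within chr16:35832874-35972605, and exons of Parp9 and Dtx3l overlap on opposite strands by 458 bases, so reads there could be assigned to either gene if strand was not used. Dtx3l, the E3 ligase, was at 87.5, 101 and 108 CPM in control, 83.5, 85.2 and 85.2 CPM in SAHA and 92.8, 96 and 100 CPM in Smarcb1-RE. SAHA was lower (log2 fold change -0.23, SE 0.07, edgeR adjusted p = 0.00797) and Smarcb1-RE overlapped with control (-0.04, SE 0.06, edgeR adjusted p = 0.584), where the sign turned with library totals in place of TMM factors, with at least 10 counts in every library and without control replicate 3. Parp9 was called in neither comparison (log2 fold change 0.01 and 0.06). Parp12 measured 33, 38.7 and 38.3 CPM in control, 24.6, 27.2 and 27.7 CPM in SAHA and 41.1, 44.8 and 40.8 CPM in Smarcb1-RE. It fell in SAHA (log2 fold change -0.47, SE 0.07, edgeR adjusted p = 7.98e-05) and rose in Smarcb1-RE (0.20, SE 0.07, edgeR adjusted p = 0.0165), a call lost without control replicate 1 and without Smarcb1-RE replicate 2 (adjusted p = 0.0858). Parp14 rose by 0.18 in SAHA (edgeR adjusted p = 0.0184, lost without SAHA replicate 2 or 3 with adjusted p = 0.0694 and 0.0619) and by 0.47 in Smarcb1-RE on the log2 scale.

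All 4 nuclear and TRIM proteins rose in each comparison with control. Sp100, a component of PML nuclear bodies, was at 175, 186 and 170 CPM in control, 272, 304 and 307 CPM in SAHA and 276, 283 and 287 CPM in Smarcb1-RE, and the treated groups overlapped. Its log2 fold change was 0.73 (SE 0.05, edgeR adjusted p = 1.06e-07) in SAHA and 0.67 (SE 0.05, edgeR adjusted p = 9.72e-08) in Smarcb1-RE. Phf11b, a PHD finger protein, measured 29.2, 30.3 and 27.2 CPM in control, 66.9, 65.8 and 66.8 CPM in SAHA and 44.6, 43.6 and 45.8 CPM in Smarcb1-RE. SAHA was highest without overlap (log2 fold change 1.20 in SAHA and 0.63 in Smarcb1-RE, SE 0.05 in each), although 62.9% of the 31-base stretches of Phf11b occur in other genes, mostly in Phf11a. Trim30a, a negative regulator of Toll-like receptor signalling, rose from 107 ± 1.2 CPM to 249 ± 18.6 CPM in SAHA and 168 ± 4.49 CPM in Smarcb1-RE. Phf11d, the neighbour of Phf11b, rose by log2 fold changes of 1.01 and 0.58.

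Of 7 further interferon-inducible genes, 3 rose, 1 fell and 3 were not called in SAHA, and 6 rose and 1 was not called in Smarcb1-RE (4 rose of 5 without Ifi44 and Lgals3bp). Ifi27, a mitochondrial and nuclear envelope protein, was at 15.7, 13.5 and 11.2 CPM in control, 34, 32.2 and 32.7 CPM in SAHA and 83.5, 89.9 and 85.1 CPM in Smarcb1-RE. The groups were separate, with log2 fold changes of 1.29 (SE 0.09, edgeR adjusted p = 8.11e-08) and 2.68 (SE 0.08, edgeR adjusted p = 4e-11). Ifi44 had 0 counts in every control library, 1, 1 and 0 counts in SAHA and 11, 12 and 15 counts in Smarcb1-RE, at least 4.36-fold higher in Smarcb1-RE than the limit of detection in control. Shisa5, a p53- and interferon-inducible protein of the endoplasmic reticulum, measured 311, 322 and 326 CPM in control, 310, 302 and 309 CPM in SAHA and 460, 491 and 472 CPM in Smarcb1-RE. It was not called in SAHA (log2 fold change -0.06, SE 0.04, edgeR adjusted p = 0.208) and rose in Smarcb1-RE (0.57, SE 0.04, edgeR adjusted p = 2.84e-08). Tor3a, a torsin ATPase, was at 2.81, 2.54 and 2.43 CPM in control, 1.52, 1.81 and 1.76 CPM in SAHA and 2.6, 3.72 and 3.75 CPM in Smarcb1-RE. SAHA lay below control (log2 fold change -0.61, SE 0.19, edgeR adjusted p = 0.014), and Smarcb1-RE overlapped with control (0.37, SE 0.18, edgeR adjusted p = 0.0754). Xaf1, an antagonist of the inhibitor of apoptosis XIAP, rose by 0.29 in SAHA (edgeR adjusted p = 0.0165, lost without control replicate 2 or SAHA replicate 3) and 1.29 in Smarcb1-RE on the log2 scale. Ifi35, a partner of NMI, rose by 0.70 in SAHA, and its call in Smarcb1-RE (0.18, edgeR adjusted p = 0.0369) was lost with the replicate number as a block (adjusted p = 0.0557), when all genes were kept (0.0511) and when any of 6 libraries was left out (up to 0.172 without control replicate 3), and its libraries overlapped. Lgals3bp, a secreted glycoprotein, was at 0.34, 0.169 and 0.37 CPM in control, 0.216, 0.221 and 0.344 CPM in SAHA and 0.64, 0.796 and 0.431 CPM in Smarcb1-RE, the group through which it passed the filter.

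**Figure D3:**
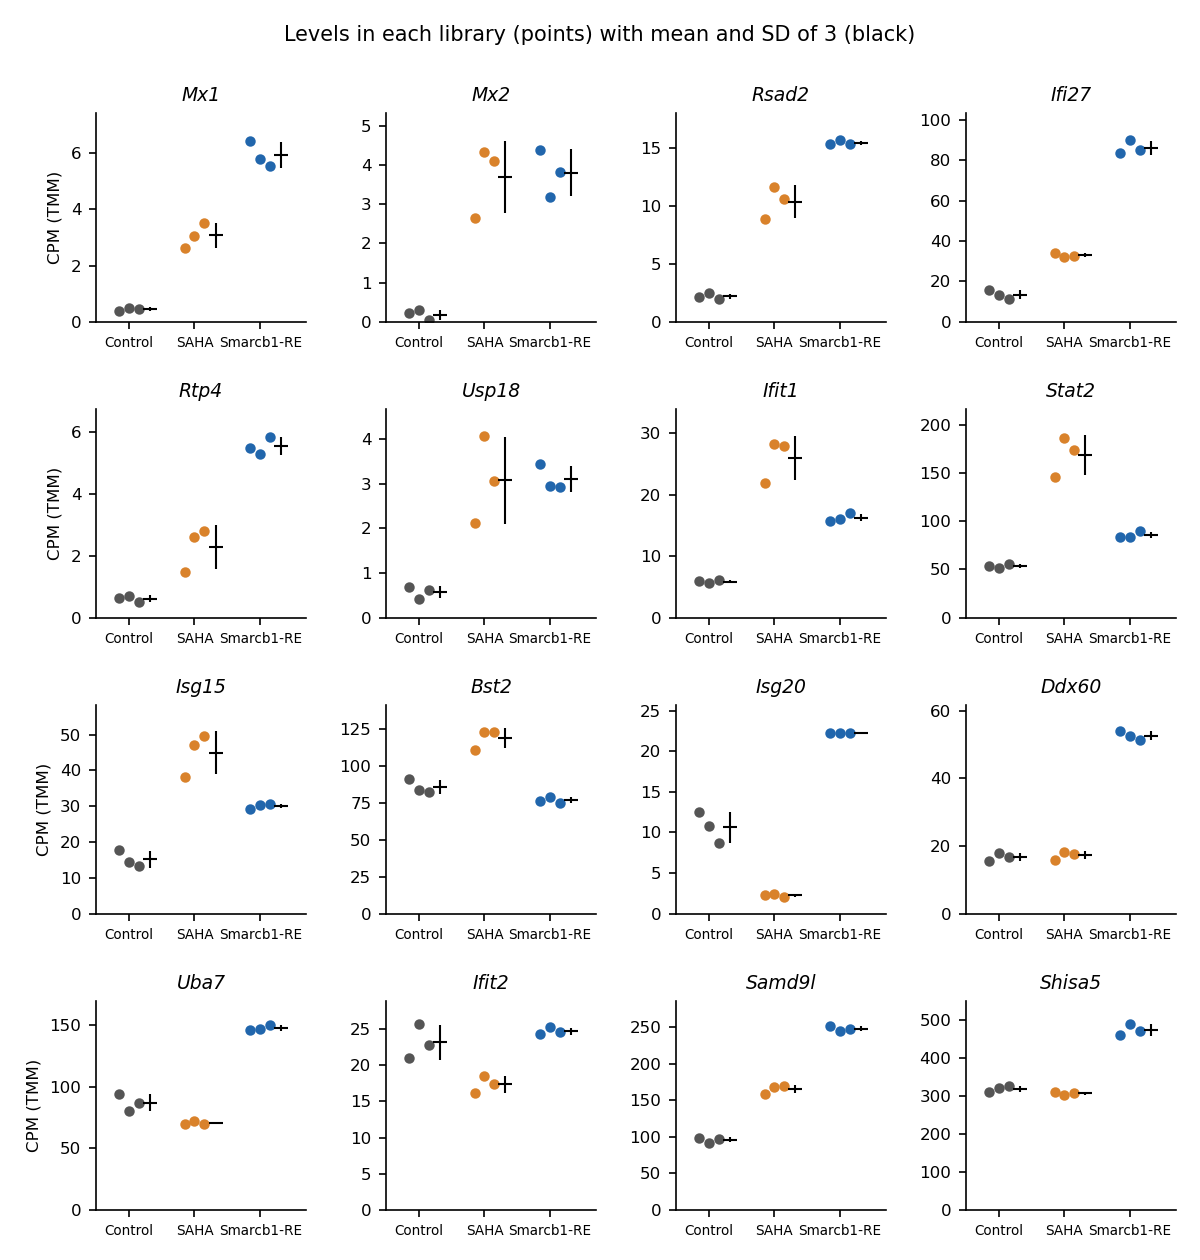
CPM of 16 interferon-stimulated genes in each library, with control in grey, SAHA in orange and Smarcb1-RE in blue, each panel starting at 0. Points are single libraries and black marks show the mean and SD of 3. Isg20 fell to about 2 CPM in SAHA and stood at 22.2 to 22.3 CPM in Smarcb1-RE, whereas Ifit1, Stat2, Isg15 and Bst2 were highest in SAHA.

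The direct comparison of Smarcb1-RE with SAHA asked where the 2 treated groups differed, with transduction, selection and Dox as part of the difference. Smarcb1-RE was higher for 21 of the 38 tested genes and lower for 10, and 7 were not called. Among all tested genes, 74.6% were called, 37.7% higher and 36.8% lower, compared with 55.3% and 26.3% of the tested members. Without Ifitm1, Ifi44 and Lgals3bp, 18 of 35 were higher (51.4%) and 10 lower (28.6%). The median log2 fold change was 0.46 (0.29 without Ifitm1, Ifi44 and Lgals3bp), against 0.02 over all tested genes. At a minimum absolute log2 fold change of 1, 11 were higher in Smarcb1-RE, Ifitm1, Ifi44 and Lgals3bp among them, and 0 in SAHA. Among all 13697 tested genes, 1582 were higher in Smarcb1-RE and 1124 in SAHA at this cut. The libraries did not overlap for 21 higher (18 without those 3) and 11 lower members, compared with 40.7% and 39.3% of all tested genes. With library totals only, the median of all tested genes moved to 0.18, and 23 were called higher and 9 lower.

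Among the 35 genes that did not pass the filter through Smarcb1-RE alone, Isg20 lay furthest toward Smarcb1-RE (log2 fold change 3.31, SE 0.13, edgeR adjusted p = 3.07e-10). It was followed by Ddx60 (1.61, SE 0.06, edgeR adjusted p = 2.57e-10) and Ifi27 (1.38, SE 0.08, edgeR adjusted p = 4.36e-09). Rtp4 (1.28), Herc6 (1.15), Uba7 (1.07), Oasl2 (1.02) and Xaf1 (1.00) also lay higher in Smarcb1-RE on the log2 scale. Ifi44 had 38 summed counts in Smarcb1-RE against 2 in SAHA, and Ifitm1 had 32 against 4, which are descriptions of genes tested only because of the Smarcb1-RE libraries. Those furthest toward SAHA were Stat2 (-0.98), Ifit1 (-0.68, SE 0.09, edgeR adjusted p = 1.96e-05), Bst2 (-0.63, SE 0.05, edgeR adjusted p = 2.58e-07), Isg15 (-0.58, SE 0.10, edgeR adjusted p = 0.000188) and Phf11b (-0.57, SE 0.05, edgeR adjusted p = 1.36e-07). Trim30a, Ifi35, Trim25, Phf11d and Oas1a were the other genes with higher levels in SAHA, between -0.57 and -0.41. Usp18 (0.02, SE 0.23), Mx2 (0.05, SE 0.25), Cmpk2 (-0.23), Oas1g (0.41), Ifit3 (-0.53, edgeR adjusted p = 0.0737), Parp9 (0.06) and Sp100 (-0.06) were not called, and the signs of Usp18, Mx2 and Sp100 turned under other settings.

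**Figure D4:**
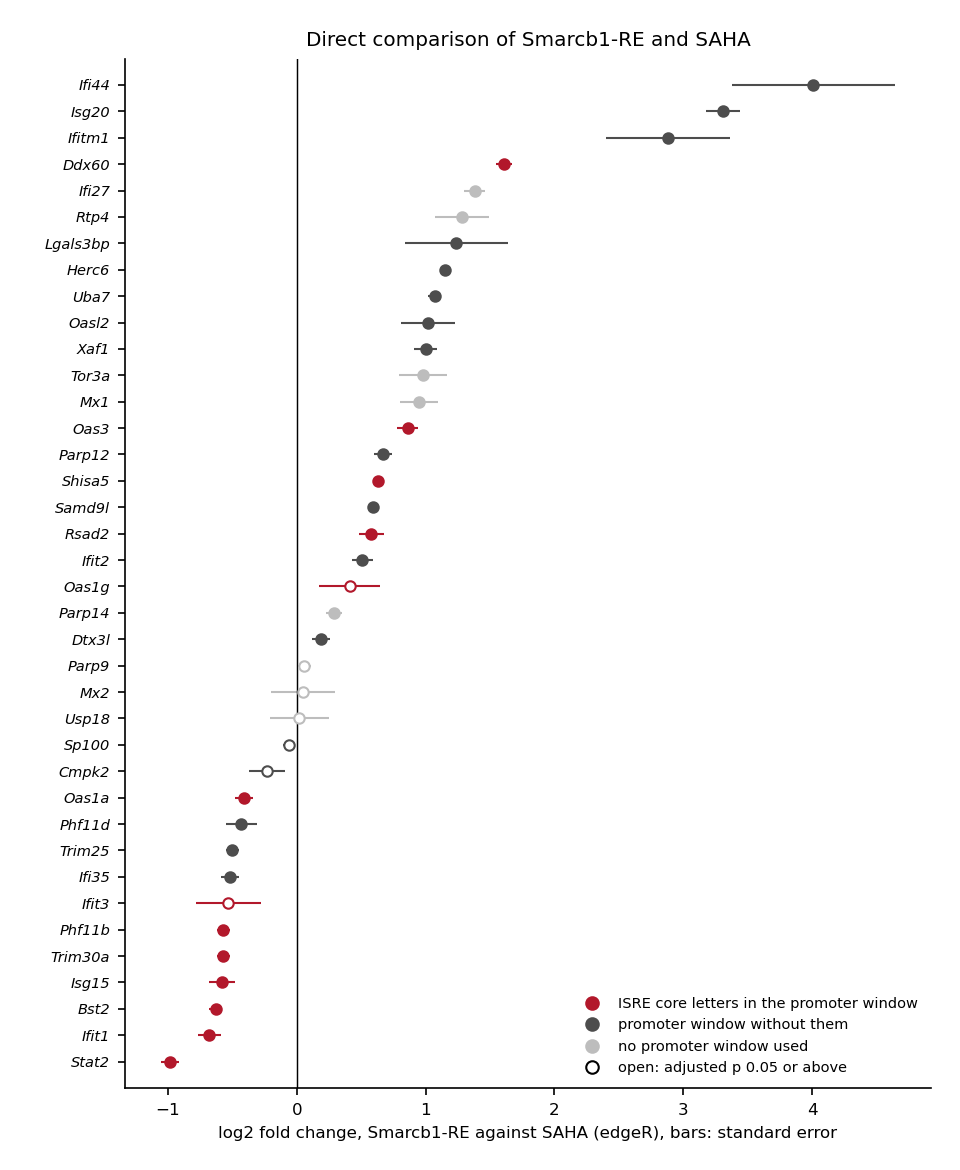
Log2 fold change of Smarcb1-RE against SAHA for the 38 tested interferon-stimulated genes, ordered by value, with bars for the standard error and open symbols for an adjusted p of 0.05 or above. Colour shows whether the promoter window held the ISRE core letters (red), did not (dark grey) or was not used (light grey). The values run from -0.98 for Stat2 to 4.01 for Ifi44, which rests on 2 summed counts in SAHA. Ifi44, Ifitm1 and Lgals3bp passed the filter only through Smarcb1-RE. Of the 10 genes called lower in Smarcb1-RE, 7 are red, and over all tested genes 13 are red and 17 dark grey.

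The ISRE core letters shown above were counted over these calls. In SAHA, 11 of the 19 genes called higher that had a window held the letters, compared with 0 of 5 called lower and 2 of 6 not called. The median log2 fold change in SAHA was 1.54 over the 13 tested genes with the letters and 0.26 over 14 without, leaving out Ifitm1, Ifi44 and Lgals3bp, which passed the filter only through Smarcb1-RE and lacked the letters. In Smarcb1-RE the medians over the same genes were 0.98 and 0.72 (1.06 over 17 without the letters if those 3 are kept, which turns the order), and 12 of the 13 with and 12 of the 14 without the letters were called higher. In the direct comparison, 7 of the 13 with the letters (Stat2, Isg15, Ifit1, Oas1a, Bst2, Phf11b and Trim30a) and 3 of the 14 without were called lower in Smarcb1-RE. Called higher were 4 of the 13 with the letters (Oas3, Rsad2, Ddx60 and Shisa5) and 9 of the 14 without. The medians were -0.53 with and 0.55 without the letters over the same genes. Genes without a window, Mx1, Mx2, Usp18, Rtp4 and Ifi27 among them, are left out of all these counts. These are counts and medians without a test, and the windows include neighbouring copies such as Oas1a and Oas1g.

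The listed genes lay on 14 chromosomes, and 22 of them in 8 clusters with gaps of at most 200 kb. Within the Ifit cluster, Ifit2 had the opposite sign to Ifit1 and Ifit3 in SAHA. Within the Oas cluster (chr5:120730333-120907521), Oas3 was higher in Smarcb1-RE than in SAHA (log2 fold change 0.86, SE 0.08, edgeR adjusted p = 3.58e-07) and Oas1a was lower (-0.41, SE 0.07, edgeR adjusted p = 0.000211). The Phf11 pair (chr14:59320964-59365470) moved in the same direction in each comparison, as did Mx1 and Mx2 where they were called.

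None of 20 genes for type I and III interferons passed the filter. Ifnb1 had 0 counts in all 9 libraries, and Ifnz alone exceeded 3 counts in any library, with 3, 3 and 1 counts in control, 2, 9 and 5 counts in SAHA and 7, 5 and 10 counts in Smarcb1-RE. At this depth 0 counts allow up to 0.123 to 0.133 CPM. Ifng, the type II interferon, which signals through a receptor of its own, was at 25.7, 22.3 and 22.2 CPM in control, 166, 183 and 175 CPM in SAHA and 25, 23.8 and 26.5 CPM in Smarcb1-RE. SAHA was far above both other groups (log2 fold change 2.90, SE 0.06, edgeR adjusted p = 5.37e-11), and Smarcb1-RE overlapped with control (0.10, SE 0.07, edgeR adjusted p = 0.199). Of 12 GTPase genes known for induction by interferon gamma, such as Gbp2 and Iigp1, 10 rose and 0 fell in SAHA (83.3% higher against 32.6% of all tested genes, median log2 fold change 0.88). In Smarcb1-RE 5 rose and 6 fell (41.7% and 50%, median -0.21), near the 39.2% and 38.6% of all tested genes. The part of Ifng in the levels of the listed genes was not tested.

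Genes for both chains of the type I receptor were tested. Ifnar1, a chain of the type I receptor, had a log2 fold change of 0.00 in SAHA (edgeR adjusted p = 0.944) and 0.22 in Smarcb1-RE (edgeR adjusted p = 0.00211), and Ifnar2, the other chain, -0.10 (edgeR adjusted p = 0.148) and 0.33 (edgeR adjusted p = 9.64e-05). Of 6 interferon receptor genes, 2 rose and 1 fell in SAHA (33.3% higher, near the 32.6% of all tested genes) and 4 rose and 1 fell in Smarcb1-RE (66.7% higher, against 39.2%). Irf9, the DNA-binding subunit of ISGF3, was at 65.7, 67.7 and 70.3 CPM in control, 80, 82.9 and 86.4 CPM in SAHA and 103, 101 and 101 CPM in Smarcb1-RE. The groups were separate, with log2 fold changes of 0.29 (SE 0.04, edgeR adjusted p = 6.37e-05) and 0.59 (SE 0.04, edgeR adjusted p = 5.48e-08). Stat2 was thus higher in SAHA than in Smarcb1-RE, whereas Irf9 was lower (log2 fold change of Smarcb1-RE against SAHA 0.30, edgeR adjusted p = 3.53e-05).

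Among the receptor kinases, Jak1 was called in neither comparison with control, and Tyk2 rose by 0.29 and 0.53 on the log2 scale. Jak2 rose in SAHA (log2 fold change 0.94, edgeR adjusted p = 5.37e-09) and fell in Smarcb1-RE (-0.15, edgeR adjusted p = 0.0102). Of the 7 tested interferon regulatory factors outside ISGF3, 7 rose in SAHA (100%, against 32.6% of all tested genes). In Smarcb1-RE, 3 of them rose and 2 fell (42.9% and 28.6%, against 39.2% and 38.6% of all tested genes). Irf8, a factor of myeloid and lymphoid cells, rose in SAHA (log2 fold change 2.56, SE 0.14, edgeR adjusted p = 1.27e-08) and fell in Smarcb1-RE (-2.73, SE 0.23, edgeR adjusted p = 2.45e-07). Irf7, the interferon-inducible factor that amplifies type I interferon responses, was at 1.79, 1.94 and 1.19 CPM in control, 13.9, 20.6 and 21.4 CPM in SAHA and 29.9, 31.8 and 30.2 CPM in Smarcb1-RE. Its groups were separate (log2 fold change 3.50, SE 0.19, edgeR adjusted p = 1.38e-08 in SAHA, and 4.22, SE 0.19, edgeR adjusted p = 5.59e-10 in Smarcb1-RE). Of 12 tested nucleic acid sensors and adaptors, 6 rose and 1 fell in SAHA (50% and 8.33%, against 32.6% and 34.3% of all tested genes) and 6 rose and 5 fell in Smarcb1-RE (50% and 41.7%, near the 39.2% and 38.6% of all tested genes). Ddx58, which encodes the RNA sensor RIG-I, rose by 0.92 in SAHA and 1.66 in Smarcb1-RE on the log2 scale. Of 8 negative regulators, 3 rose and 4 fell in SAHA (37.5% and 50%, against 32.6% and 34.3% of all tested genes). For Smarcb1-RE, 1 rose and 4 fell (12.5% and 50%, against 39.2% and 38.6% of all tested genes). Socs3, a feedback inhibitor of cytokine receptors, rose in SAHA (log2 fold change 1.79, SE 0.07, edgeR adjusted p = 2.32e-09) and was not called in Smarcb1-RE (-0.18, edgeR adjusted p = 0.0693). Socs1, an inhibitor of JAK kinases, had log2 fold changes of -0.46 (SE 0.09, edgeR adjusted p = 0.000429) and -1.24 (SE 0.09, edgeR adjusted p = 6.29e-08).

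Many markers of other cell types were low, but Ccr9 was abundant in all groups and Pdgfra in Smarcb1-RE, and the levels were not constant. The summed level of 5 fibroblast markers was 6.29 to 8.84 CPM in control, 6.76 to 7.06 CPM in SAHA and 66.4 to 68.6 CPM in Smarcb1-RE, nearly all of it from Pdgfra, with Col3a1 and Dcn at or under 3 counts in every library. Col1a2 was not tested. Col1a1 had 1, 5 and 0 counts in control and 17, 20 and 25 counts in SAHA (log2 fold change 3.34, edgeR adjusted p = 0.000176). In Smarcb1-RE, Col1a1 had 11 counts in each library (2.43, edgeR adjusted p = 0.00296). The summed level of 5 B cell markers was 0.935 to 1.14, 1.24 to 1.86 and 7.25 to 7.96 CPM, carried by Ms4a1 and Pax5, with Cd79b at or under 3 counts. The 5 plasmacytoid dendritic cell markers summed to 64.4 to 65.7, 59.2 to 72.4 and 70.8 to 75.2 CPM, nearly all from Ccr9, with Siglech, Ly6d and Klk1 at or under 3 counts. The fifth of them, Tcf4, stood at 0.571 ± 0.187 CPM in control (SD, n = 3) and was higher at 3.44 ± 0.691 CPM in SAHA (log2 fold change 2.57, edgeR adjusted p = 3.52e-06) and 2.76 ± 0.579 CPM in Smarcb1-RE (2.26, edgeR adjusted p = 8.13e-06). The 8 myeloid markers summed to 0.634 to 0.765 CPM in control, 0.0883 to 0.173 CPM in SAHA and 0.177 to 0.345 CPM in Smarcb1-RE, with S100a8 and S100a9 at 0. The part of these genes in the levels of the listed genes was not tested.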

How the data were processed

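Bulk RNA-seq of 9 T15 libraries (3 control, 3 SAHA and 3 Smarcb1-RE, called biological replicates in the study's methods) was analysed from a single table. The values deposited by the authors are estimated counts by Ensembl gene identifier, without normalization or pooling, of which 52.4% of those above 0 had a fractional part (tolerance 1e-06). The submitters' processing notes name Salmon 0.14.1, DESeq2 1.22.2, FastQC 0.11.8, MultiQC 1.7 and GRCm38. The annotation release and the use of strand are not given in the sources used here, although the kit is directional. Gene names and coordinates were taken from GENCODE M21 (99.3% of 35288 identifiers, 99.9% of counts). P-values measure the spread between these libraries.

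Values were rounded and analysed in R 4.3.3 with edgeR 4.0.16 (TMM, filterByExpr at its minimum count of 10, then glmQLFit and glmQLFTest with Benjamini-Hochberg adjustment over 13697 genes) in 1 fit of all 9 libraries. The common biological coefficient of variation was 5.24%. Standard errors were taken from the size of the log2 fold change over the root of the F statistic. An exact permutation test of 3 against 3 libraries cannot go below p = 0.1. Calculations were tested on simulated counts. Shared sequence was measured as the share of 31-base stretches of a gene's transcripts found in transcripts of other genes.

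The members, their roles and the pathway and marker lists were chosen with earlier results of these data known, and some of the listed pathway and marker genes are not reported here. Values in every library are given for the 5 members with the largest change in each direction and comparison among those called, and for the member of each role with the highest mean CPM. Alternatives were DESeq2 1.42.0 (no independent filtering), RLE factors, library totals only, other filters on low counts, a separate fit for each comparison, the replicate number as a block, a least absolute log2 fold change of 1 and leaving out each library.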

Additional observations from a re-analysis of the deposited data

How the results depend on the processing

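For the counts of members called higher or lower, DESeq2, RLE factors, no filter on low counts, separate fits and the replicate block stayed within 1.5 times the reported counts. When an absolute log2 fold change of 1 or more was also required, 16 were higher and 1 lower in SAHA against control, 20 and 0 in Smarcb1-RE against control, and 11 and 0 in Smarcb1-RE against SAHA. The 20 and the 11 include Ifitm1, Ifi44 and Lgals3bp, which passed the filter only through Smarcb1-RE. The single lower call in Smarcb1-RE (Bst2) became 0 with library totals only and 0 with at least 10 counts in every library. Leaving out 1 library gave 23 to 25 higher and 6 lower in SAHA, 30 to 33 higher and 0 to 2 lower in Smarcb1-RE, and 19 to 21 higher and 10 to 12 lower in the direct comparison, where the 0 came without Smarcb1-RE replicate 3 and the 2 without control replicate 1.

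Same-numbered replicates did not deviate together (mean correlation across genes -0.003 over 9 pairs, against 0.002 for 18 other pairs), so the numbers are not taken to pair the libraries. With the replicate block, 25 were higher and 6 lower in SAHA, 32 and 1 in Smarcb1-RE, and 21 and 10 in the direct comparison. Ifi35 in Smarcb1-RE was the member that lost its call.

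Library totals only moved the share of calls that were higher from 50.4% to 61% over all genes in Smarcb1-RE against control (97.1% to 100% of the members), and from 50.6% to 62.1% in Smarcb1-RE against SAHA (67.7% to 71.9%). Of 1137 values of 24 members recomputed under these settings, 1122 kept their side of the threshold, 9 lost and 6 gained a call. The sign changed in 10 values of 5 members (Ddx60, Dtx3l, Usp18, Mx2 and Sp100), called neither before nor after. Members under 10 counts in every control and SAHA library (Ifitm1, Ifi44, Lgals3bp, Ifit3b, Oas2, Oasl1, Ifitm2 and Ifitm3) are limited by depth. So is the control level of Mx2, with 5, 7 and 1 counts.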
